A study of Mus musculus with 15 samples.

Results

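The IL-6 family transcripts described here are the cytokines *Il6*, *Lif*, *Il11* and *Osm*, their receptor subunits *Il6st*, *Il6ra*, *Il11ra1*, *Osmr* and *Lifr*, and the inhibitor *Socs3*. These 10 genes of the 53465 in the table of normalized counts were taken by symbol, and all 10 were measured in all 15 libraries. The study sorted cells from B16-F0 melanomas, a transplanted mouse tumor line, that had grown in CAG-GFP reporter mice of 8 to 14 weeks and both sexes and were collected on day 15. CAG-GFP is driven by a ubiquitous promoter, so that GFP marks any cell of the host and not its endothelium alone. All 3 populations were gated as lineage negative, CD34+ and GFP+, with CD31 and VEGFR2 setting them apart: endovascular progenitors (EVP) were CD31 low and VEGFR2 low, transit amplifying cells (TA) were CD31 intermediate and VEGFR2 low, and definitive differentiated cells (D) were CD31 high and VEGFR2 high. Each population had 5 libraries, numbered 1 to 5. Nothing in the sources used here says that the libraries of a population came from separate animals, so the p-values measure the spread between these libraries, which may be technical.

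The IL-6 family cytokines share 1 signaling receptor, gp130, which *Il6st* encodes. IL-6 and IL-11 each first bind a receptor chain of their own. Within the family, gp130 pairs with itself or with the LIF or oncostatin M receptor, and the attached JAK kinases phosphorylate STAT3. STAT3 turns on *Socs3*, whose protein binds gp130 and JAK and shuts the signal down, and in many tissues also turns on genes of the acute phase of inflammation. Endothelial cells are known to carry gp130 and to answer to IL-6 through a soluble form of its receptor, while fibroblasts are a known source of IL-6, LIF and IL-11.

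Libraries held between 5394356 and 26513073 reads on genes. Libraries numbered 1 had the fewest reads of their population and the most stray signal: the 95th percentile of 1106 olfactory receptor genes, a family used in the nose, stood at 371 normalized counts in EVP 1, 105 in TA 1 and 70.0 in D 1. Stray signal was not confined to them, as this percentile was 60.3 in TA 3, 19.6 in EVP 2 and 17.6 in TA 2. The markers did not all follow the gate's names. Of 11 pan-endothelial markers, 10 were higher in D than in EVP, and their summed level ran from 2415 to 4335 normalized counts in EVP, from 6041 to 73191 in TA and from 103436 to 164265 in D. All 10 fibroblast markers were higher in EVP than in D, with sums of at least 848654 in EVP, 192977 to 610478 in TA and 1015 to 4145 in D. *Pdgfra*, which defines fibroblasts among these markers, was at 0 in 1 D library and between 4368 and 10872 in EVP, while the endothelial cadherin *Cdh5* was at 18.3 to 183 in EVP. TA 5 stood apart from the other TA libraries with 372 normalized counts of *Pecam1*, which encodes CD31. The genes described here as higher in EVP than in D shared that direction with the fibroblast markers, whose part in those differences was not tested.

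Between EVP and D, 8 of the 10 genes were called (limma, Benjamini-Hochberg adjusted p under 0.05 over 25549 genes), and all 8 were higher in EVP. Over all genes tested, 19.0% were called, 11.6% higher in EVP and 7.46% higher in D. For the same 8 genes every EVP library lay above every D library, which held in this direction for 10.2% of all genes and in the other for 7.52% (17.7% in all). The median difference over the 10 genes was 2.90 on the log2(normalized count + 1) scale, beside 0.46 over all genes. With quantile normalization the median of all genes moved to -0.05, and the excess of the 10 genes over it was 2.86 in place of 2.44. The median of all genes was 0.19 with a minimum mean of 20 and 0.06 without EVP 1. At a minimum mean of 20, 2769 of 16661 genes were called higher in EVP and 2014 higher in D. The shares over all genes given here thus depend on the filter. The 2 genes that were not called were *Osm* and *Lifr*. In bulk libraries, fewer cells of a type and less RNA per cell cannot be told apart.

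**Figure D1:**
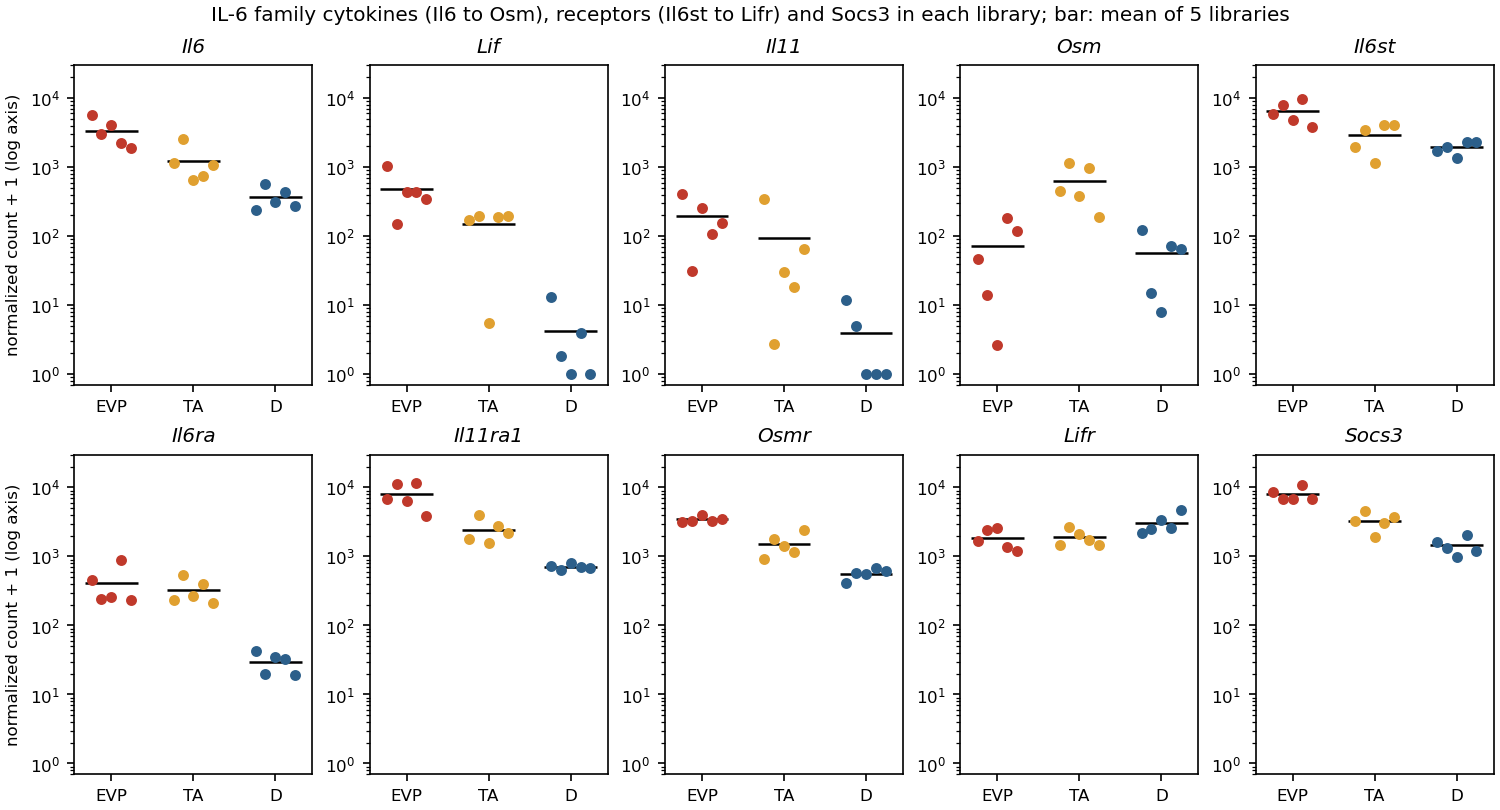
Normalized count plus 1 on a log axis for each of the 10 genes, with 1 point per library (libraries 1 to 5 from left to right) and a bar at the mean of each population. 8 genes lie higher in all 5 EVP libraries than in any D library, *Osm* is highest in the 5 TA libraries, and the populations overlap for *Lifr*.

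Among the cytokines, *Il6* (chr5:30013114-30019981 of GRCm38, plus strand), which encodes the founding member of the family, had the most reads. In EVP libraries 1 to 5 it stood at 5628, 3074, 4054, 2275 and 1906 normalized counts. TA libraries held 1138, 2565, 662, 735 and 1089.8. In D the values were 239, 571, 311, 442 and 277. The D libraries did not overlap either other population, whereas TA 2 exceeded the lowest pair of EVP libraries. *Il6* was 9.21-fold higher in EVP than in D (log2 difference 3.16, SE 0.36, limma adjusted p = 4.7e-06) and 3.37-fold higher in TA than in D (limma adjusted p = 0.0055). The difference of 2.74-fold between EVP and TA was called by limma (adjusted p = 0.0265) and DESeq2 (adjusted p = 0.0047) but not by edgeR (adjusted p = 0.0684), and it was lost when any of EVP 1, 2, 3 or TA 1, 3, 4 was left out (limma adjusted p up to 0.0774).

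The 250 bases before the RefSeq start of *Il6* (RefSeq, GRCm38.p6, chr5:30012864-30013113, plus strand) are shown because *Il6* is the cytokine with the most reads here and its proximal promoter is a textbook target of NF-kappaB. Capitals mark the match to an NF-kappaB pattern, GGGNNTTTCC on either strand, a search that was added after the values were seen.
Il6: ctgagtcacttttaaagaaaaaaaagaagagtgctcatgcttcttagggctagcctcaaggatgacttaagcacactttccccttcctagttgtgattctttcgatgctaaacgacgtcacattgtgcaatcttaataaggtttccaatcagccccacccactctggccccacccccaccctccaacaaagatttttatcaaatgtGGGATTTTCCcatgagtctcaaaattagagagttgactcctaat
The match begins 44 bases before the start. Among 32851 promoters in the table, 1.41% held this pattern in the same window, and among the 12 promoters of 9 of the genes (*Osm* had no entry) only that of *Il6* did.

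*Lif* (chr11:4257557-4272514, plus strand) encodes leukemia inhibitory factor, which keeps mouse embryonic stem cells from differentiating. Its EVP libraries held 1039, 149, 429, 434 and 348 normalized counts. Those of TA held 171, 198, 4.46, 191 and 193. Those of D held 12.4, 0.816, 0, 3.0 and 0. The D values rested on 14 reads in all, 9 of them in D 1, and every EVP library lay above every D library. TA 3, with 4 reads, fell within the range of D. The means were 148-fold apart between EVP and D (log2 difference 7.32, SE 0.96, limma adjusted p = 2.0e-05) and 46.8-fold apart between TA and D (limma adjusted p = 0.0014). The fold between EVP and D rests on few reads: without D 1, whose 12.4 normalized counts equal the median olfactory receptor gene of that library, it was 502-fold. Between EVP and TA the difference was not called (log2 difference 2.10, 95% interval 0.07 to 4.14, limma adjusted p = 0.300).

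*Il11* (chr7:4772373-4782857, minus strand) encodes a cytokine known for its part in fibrosis and blood cell formation. The EVP libraries stood at 407, 30.05, 259, 106 and 157 normalized counts. TA libraries were at 349.9, 1.76, 29.0, 17.2 and 63.5. In D, 13 reads in all gave 10.98, 4.08, 0, 0 and 0. EVP and D did not overlap, and TA spanned both, with TA 1 near the highest EVP library and TA 2 among the D libraries. The means of EVP and D were 63.7-fold apart (log2 difference 5.96, SE 1.12, limma adjusted p = 7.2e-04), and 188-fold apart without D 1, which held 8 of the 13 reads. In EVP 1 the level of *Il11* was close to the 371 normalized counts that the 95th percentile of olfactory receptor genes reached in that library. In TA 3 its level was below that percentile, which stood at 60.3 there. Without the libraries numbered 1 the log2 difference between EVP and D was 6.17 (limma adjusted p = 4.1e-04). Between EVP and TA the log2 difference was 2.14 (95% interval -0.22 to 4.49, limma adjusted p = 0.391). *Il11* was higher in TA than in D (limma adjusted p = 0.0312), a call that was lost without any of TA 1, TA 5, D 3, D 4 or D 5 (limma adjusted p up to 0.0825).

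*Osm* (chr11:4236420-4241026, plus strand), the gene next to *Lif*, encodes oncostatin M, which macrophages, neutrophils and other leukocytes are known to make. The EVP libraries held 45.6, 13.1, 1.64, 182 and 118 normalized counts. The TA libraries held 452, 1151, 378, 968 and 189. The D libraries held 122, 13.9, 7.03, 72.1 and 64.1. All 5 TA libraries lay above every EVP and every D library, and EVP and D overlapped over most of their ranges. The value of EVP 1 was below the median olfactory receptor gene of that library, at 87.8 normalized counts. That of EVP 2 was below the 95th percentile of these genes in its library, at 19.6. *Osm* was 8.70-fold higher in TA than in EVP (log2 difference 3.98, SE 1.01, limma adjusted p = 0.0365) and 11.2-fold higher in TA than in D (log2 difference 3.80, limma adjusted p = 0.0178). Between EVP and D its log2 difference was -0.18 (95% interval -2.31 to 1.95, limma adjusted p = 0.930). The call against EVP held with DESeq2 (adjusted p = 0.0077) and was lost with edgeR (adjusted p = 0.122) and when any of EVP 1, 2, 3 or TA 1, 2, 3, 4 was left out (limma adjusted p up to 0.109). The call against D was lost without D 2 (limma adjusted p = 0.0525) or D 3 (limma adjusted p = 0.0551).

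Markers of several other cell types were also high in TA. Over all genes tested, 8.21% were called higher in TA than in D and 1.94% higher in TA than in EVP. The summed level of 10 pan-leukocyte markers ran from 1909.9 to 12337 normalized counts in EVP. It ran from 9377 to 42456 in TA and from 7198 to 11879.8 in D. *Lcp1* made up most of the sum in D, with a mean of 7966 there and 6540 in TA. The mean log2(normalized count + 1) of the 10 markers ran from 6.91 to 9.89 in EVP, 8.32 to 11.5 in TA and 6.26 to 8.14 in D. Of the 10 markers, 6 were called higher in TA than in D and 2 higher in TA than in EVP. The 8 mast cell markers summed to 226 to 15504 in EVP, 4574 to 97151 in TA and 2105 to 3580.0 in D. *Kit* made up most of the sum in D, with a mean of 2992 there. The mean log2 of the 8 markers ran from 1.53 to 9.49 in EVP, 8.01 to 11.8 in TA and 1.38 to 4.86 in D. Of the 8 markers, 6 were called higher in TA than in D and 1, *Kit*, higher in TA than in EVP. Between EVP and D, 5 of the 8 mast cell markers were called higher in EVP and 1, *Kit*, higher in D. Of the 10 pan-leukocyte markers, 0 were called higher in EVP than in D and 1, *Lcp1*, higher in D. Neither *Kit* nor *Lcp1* was called between TA and D. *Cpa3*, the mast cell carboxypeptidase, was at 6891, 23623, 22476, 40328 and 1684 normalized counts in TA libraries 1 to 5 and at 0 in 2 D libraries. TA 5, lowest of the TA libraries in *Cpa3*, was also the lowest in *Osm*. TA 2, the highest library in *Osm*, had a pan-leukocyte sum of 9377 normalized counts, close to 9435 in TA 1 and beside 13447 in TA 5. By the mean log2 of these markers TA 1 was the lowest TA library (8.32), with TA 2 at 9.28 and TA 5 at 10.1. Of 10 macrophage and neutrophil markers tested, 4 were higher in TA than in EVP and 1 was higher in TA than in D, with sums of 1828 to 11102 in EVP, 7075 to 36571 in TA and 3791 to 11784 in D. Of 8 lymphocyte markers, 2 were called higher in TA than in D, and the median of their sums was 488 in EVP beside 384 in TA and 39.1 in D. The 8 melanoma markers summed to 30759 to 70218 in EVP, 71717 to 182314 in TA and 19137 to 50322 in D, all 8 called higher in TA than in D and 3 higher in TA than in EVP. The 8 keratinocyte markers, all called higher in TA than in D, summed to 1718 to 9466 in EVP, 2358 to 82759 in TA and 96.9 to 3044 in D. The highest of these sums was that of TA 2, and TA 4 (2358) and TA 5 (7067) lay within the EVP range. Between EVP and TA, 0 of the 8 keratinocyte and 0 of the 8 lymphocyte markers were called. Over the 15 libraries the genes whose log2 values were most like those of *Osm*, looked up after its values were seen, were *Rgs1* (Pearson r = 0.961), *Tyrobp* (r = 0.935) and *Slc11a1* (r = 0.931), all known from leukocytes. The part of leukocytes and of the other cell types in the level of *Osm* was not tested.

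**Figure D2:**
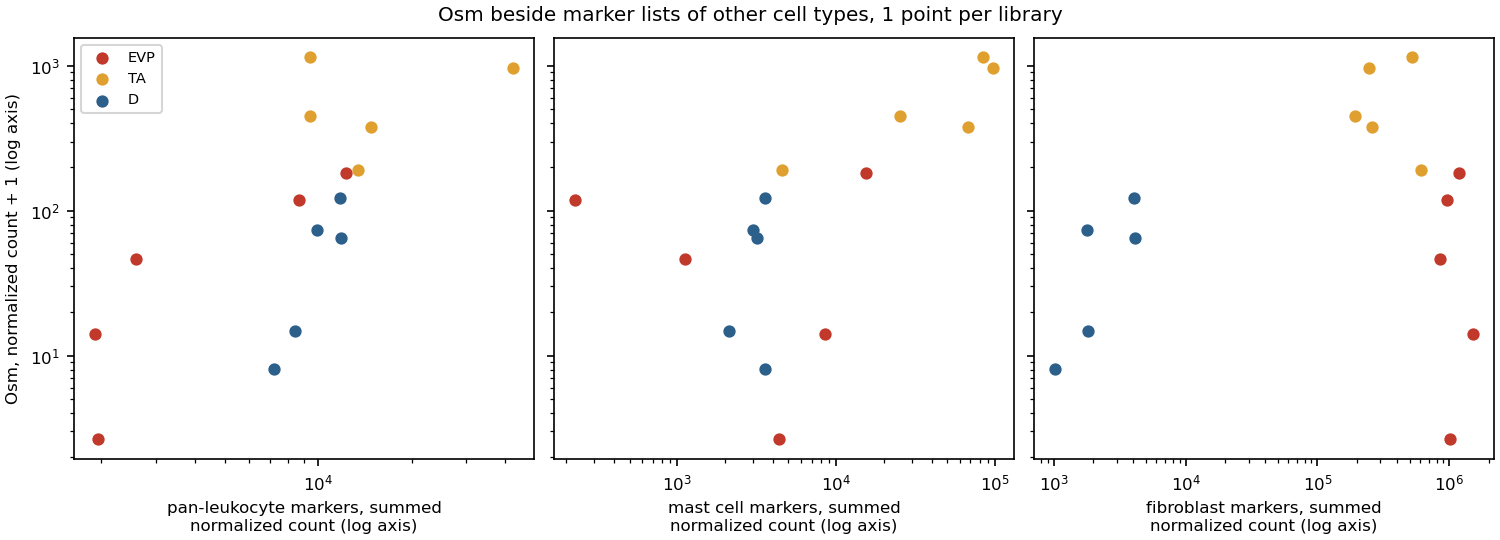
*Osm* (normalized count plus 1) against the summed normalized counts of pan-leukocyte, mast cell and fibroblast markers, both on log axes, with 1 point per library colored by population. In D, *Lcp1* makes up most of the pan-leukocyte sum and *Kit* most of the mast cell sum. The TA libraries are the 5 highest in *Osm*, and 4 of them are the 4 highest in mast cell markers, while the EVP libraries lie at the upper end of the fibroblast axis at *Osm* levels from 1.64 to 182.

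Of the receptor subunits, *Il6st* (chr13:112464070-112510086, plus strand) encodes gp130 itself. EVP libraries 1 to 5 were at 5860.0, 7868, 4804, 9858 and 3815 normalized counts. TA libraries were at 1951, 3409.9, 1154, 4026 and 4044. D libraries were at 1716, 1993, 1377, 2324 and 2283. Every EVP library lay above every D library, and TA overlapped both. *Il6st* was 3.32-fold higher in EVP than in D (log2 difference 1.68, SE 0.33, limma adjusted p = 0.0010). TA and D were not distinguished (log2 difference 0.46, 95% interval -0.23 to 1.15, limma adjusted p = 0.465). Between EVP and TA, 2.21-fold apart, the difference just missed the threshold (limma adjusted p = 0.0501), and edgeR did not call it (adjusted p = 0.133). It passed with DESeq2 (adjusted p = 0.0102) and when any of EVP 5, TA 2, TA 4 or TA 5 was left out (limma adjusted p from 0.0262 to 0.0486).

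*Il6ra* (chr3:89864059-89913196, minus strand) encodes the chain that binds IL-6 before gp130 joins. In EVP the libraries held 456, 243, 261, 891 and 232 normalized counts. In TA they held 231, 539.8, 267, 396 and 209.9. In D they held 41.2, 18.8, 34.4, 31.6 and 18.1. D lay below both other populations in every library, and EVP and TA overlapped throughout, apart from EVP 4. The gene was 14.5-fold higher in EVP than in D (log2 difference 3.67, SE 0.41, limma adjusted p = 3.1e-06) and 11.4-fold higher in TA than in D (limma adjusted p = 1.8e-05). EVP and TA were not distinguished (log2 difference 0.22, 95% interval -0.64 to 1.08, limma adjusted p = 0.933), and without EVP 4 the sign turned (-0.11). EVP 4 also had the most of 18 dissociation and immediate early genes, with a sum of 296758 normalized counts beside 103926 to 160544 in the other EVP libraries, and the part of this in the level of *Il6ra* was not tested. *Gm42809* overlaps *Il6ra* on the opposite strand, and without strand the reads of the pair cannot be told apart.

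*Il11ra1* (chr4:41699989-41769474, plus strand) encodes the chain that binds IL-11. It stood at 6748, 11355, 6456, 11637 and 3879.8 normalized counts in EVP. It stood at 1806, 3999, 1557, 2752 and 2151 in TA, and at 719, 631, 798, 708 and 671 in D. D was low and even, with an SD of 62.2 around a mean of 706, and only TA 2 reached into the EVP range, above EVP 5. The gene was 11.4-fold higher in EVP than in D (log2 difference 3.40, SE 0.28, limma adjusted p = 1.4e-07), 3.27-fold higher in EVP than in TA (limma adjusted p = 0.0044) and 3.48-fold higher in TA than in D (limma adjusted p = 5.3e-04). Its annotated span overlaps 6 other protein-coding genes and the genome holds near-identical copies under the symbol *Il11ra2*, so the reads assigned to it are uncertain.

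*Osmr* (chr15:6813577-6874969, minus strand) encodes the oncostatin M receptor, which also serves IL-31. The EVP libraries were at 3206, 3305, 4045, 3311 and 3433 normalized counts, the most even values of any of the 10 genes in EVP. TA libraries held 905, 1770.5, 1429.7, 1172 and 2411. D libraries held 408, 569, 557, 669 and 616. No population overlapped another, in the order EVP, TA, D. *Osmr* was 6.14-fold higher in EVP than in D (log2 difference 2.63, SE 0.22, limma adjusted p = 1.6e-07), 2.25-fold higher in EVP than in TA (limma adjusted p = 0.0055) and 2.73-fold higher in TA than in D (limma adjusted p = 4.2e-04).

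*Lifr* (chr15:7090614-7197489, plus strand), on the same chromosome as *Osmr*, encodes the LIF receptor. Its EVP values were 1661, 2397, 2607, 1389 and 1213 normalized counts. TA values were 1472, 2693, 2108, 1708 and 1439.7, and D values were 2161, 2474, 3321, 2625 and 4632. The 3 populations overlapped, and D 5 was the highest library. The mean was 1.64-fold higher in D than in EVP, which was not called (log2 difference of EVP minus D -0.72, 95% interval -1.26 to -0.19, limma adjusted p = 0.0572). The same difference passed with DESeq2 (adjusted p = 0.0418) and when any of EVP 2, EVP 3, TA 2 or D 1 was left out (limma adjusted p from 0.0294 to 0.0439). EVP and TA gave a log2 difference of -0.05 (95% interval -0.58 to 0.49, limma adjusted p = 0.989).

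**Figure D3:**
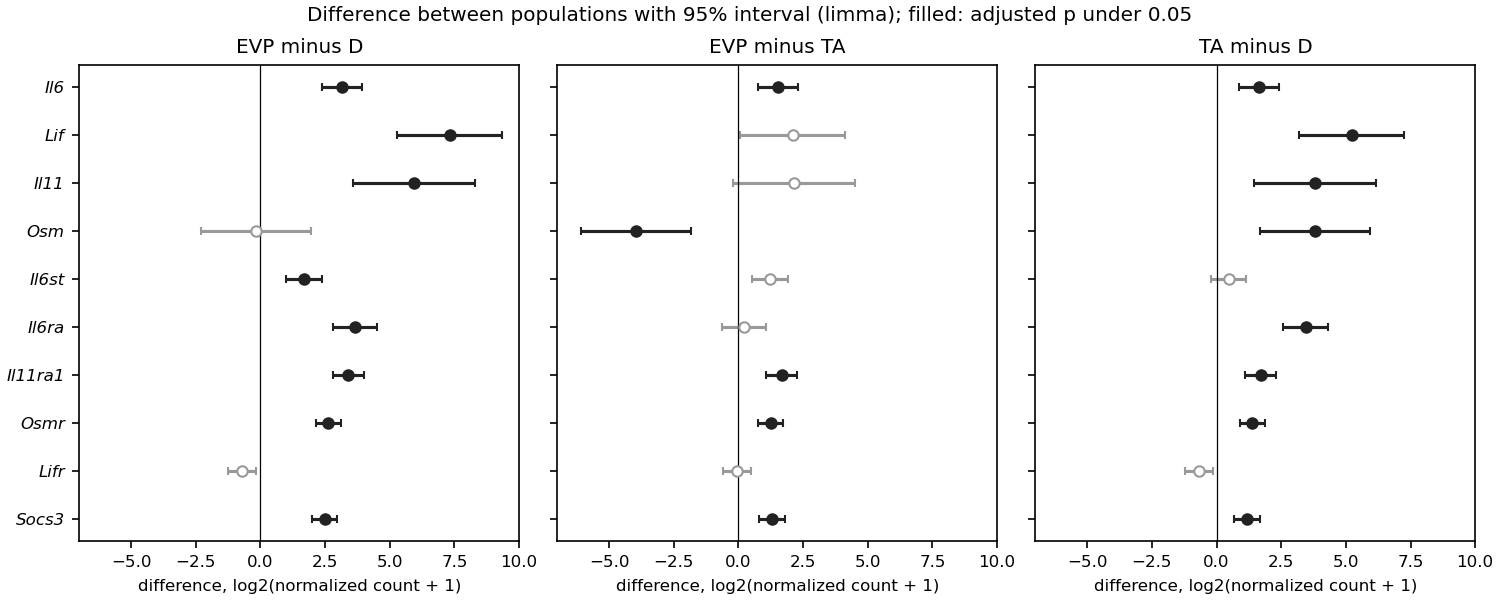
Difference between populations in log2(normalized count + 1) with its 95% interval from limma, for EVP minus D, EVP minus TA and TA minus D, with filled points for an adjusted p under 0.05. 8 genes lie to the right of 0 and are filled in EVP minus D, *Osm* alone is filled on the left in EVP minus TA, and *Lifr* is open in all 3 panels.

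Per length, *Socs3* had the highest mean of the 10 genes in EVP, in TA (1139 normalized counts per kb of exon) and in D. In EVP its mean was 2752 normalized counts per kb of exon, ahead of *Il11ra1* at 1793, *Il6* at 1395 and *Il6st* at 580. *Osmr* followed at 286 per kb, *Lifr* at 172 and *Lif* at 110, with *Il11* at 92.3, *Il6ra* at 48.2 and *Osm* at 31.8. In D the order was *Socs3* at 499 per kb, *Lifr* at 282, *Il6st* at 175, *Il11ra1* at 158, *Il6* at 151, *Osmr* at 46.5 and *Osm* at 24.6, and *Il6ra* (3.33), *Il11* (1.45) and *Lif* (0.744) lay below 5. *Il6st*, *Il11ra1* and *Il6* overlapped in D, as did *Lifr* with *Il6st*. *Lifr* was thus behind *Il11ra1*, *Il6st* and *Osmr* per length in EVP and ahead of every other receptor subunit in D, by the means. Parts of this order depended on the length used. With the length of the longest transcript, *Socs3* was at 3117 and *Il11ra1* at 3077 per kb in EVP. In D, *Il11ra1* (271) then passed *Il6st* (223). In EVP 2, *Il11ra1* was ahead of *Socs3* per kb of exon.

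A ratio of 2 receptors within a library does not depend on the scaling of that library. *Lifr* to *Osmr*, per kb of exon, was 0.598 ± 0.173 (SD, n = 5) in EVP, with a range of 0.397 to 0.815. The ratio was 1.5 ± 0.470 in TA and 6.08 ± 1.60 in D, where it ran from 4.41 to 8.45. EVP and D did not overlap, and TA 5 (0.671) was the 1 TA library within the EVP range. With the length of the longest transcript in place of all exons, a length chosen after seeing the data, the ratios were 0.303, 0.759 and 3.08, so whether *Lifr* or *Osmr* was the higher of the pair in TA depended on the length used. *Il11ra1* to *Il6st* was 3.05 ± 0.416 in EVP, 2.32 ± 0.836 in TA and 0.950 ± 0.300 in D. *Il6ra* to *Il6st* was 0.0807 ± 0.0293 in EVP, 0.169 ± 0.0867 in TA and 0.0205 ± 0.0103 in D, so that the IL-6 binding chain was below gp130 in every library.

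**Figure D4:**
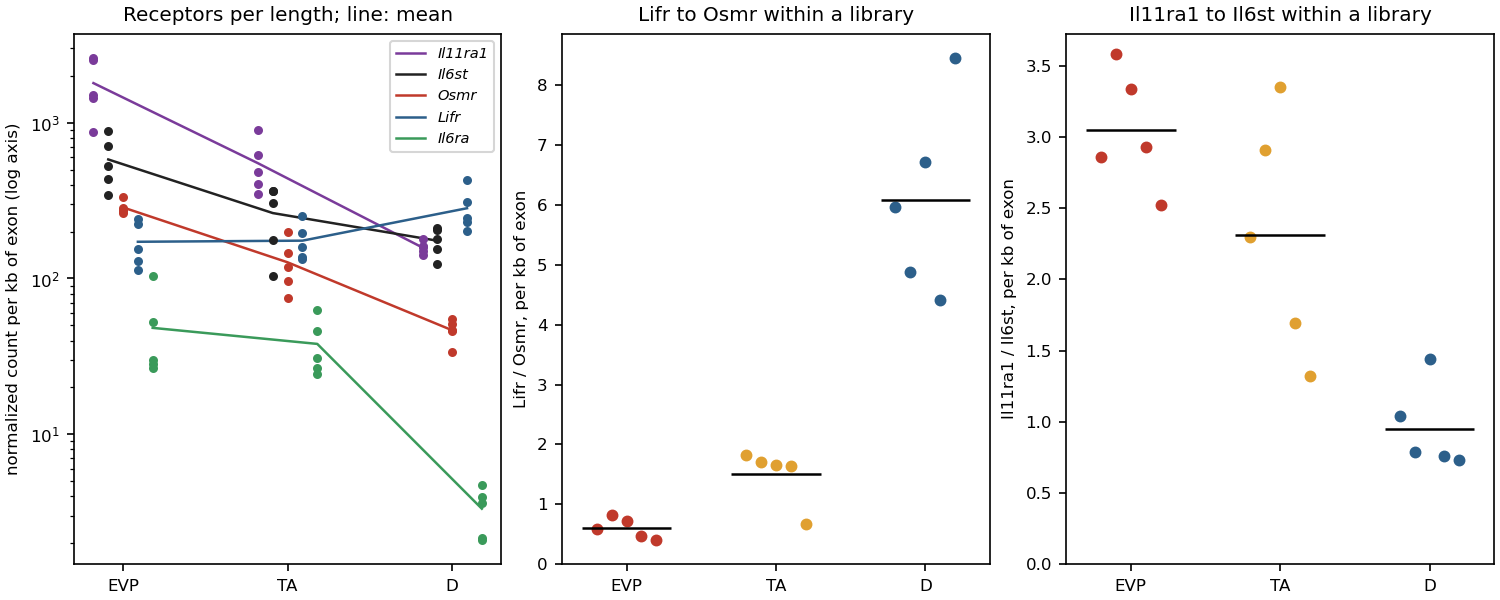
Left, normalized count per kb of exon of the 5 receptor subunits in each library on a log axis, with lines through the means of EVP, TA and D; middle and right, the ratio of *Lifr* to *Osmr* and of *Il11ra1* to *Il6st* within each library, with bars at the means. *Lifr* to *Osmr* lies at 0.397 to 0.815 in EVP and at 4.41 to 8.45 in D, while *Il11ra1* to *Il6st* has a mean of 3.05 in EVP and 0.950 in D.

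*Socs3* (chr11:117966079-117970047, minus strand), the feedback inhibitor of gp130, held 8486, 6772, 6720.5, 11011 and 6789 normalized counts in EVP libraries 1 to 5. The TA libraries held 3247, 4486, 1934, 3099 and 3699.6, and the D libraries held 1627, 1343, 972, 2066 and 1203. Each EVP library lay above each TA and D library, and TA 3 alone fell within the range of D. *Socs3* was 5.52-fold higher in EVP than in D (log2 difference 2.48, 95% interval 1.99 to 2.98, limma adjusted p = 5.2e-07). It was 2.42-fold higher in EVP than in TA (log2 difference 1.30, limma adjusted p = 0.0058) and 2.28-fold higher in TA than in D (log2 difference 1.19, limma adjusted p = 0.0023). *Socs3* is also among the genes that tissue dissociation can induce. Of 18 dissociation and immediate early genes, 9 were called higher in EVP than in D, 8 higher in TA than in D and 0 between EVP and TA by limma. The shares over all genes were 11.6%, 8.21% and 3.50%. For EVP against TA, 5 of the 18 genes had an unadjusted limma p under 0.05, and edgeR called 0 and DESeq2 2. EVP 4, the library highest in *Socs3*, was the highest in their sum. Their sums ran from 103926 to 296758 normalized counts in EVP, from 79942 to 170034 in TA and from 74801 to 87529 in D. The part of dissociation in the level of *Socs3* was not tested.

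The 250 bases before the RefSeq start of *Socs3* (RefSeq, GRCm38.p6, chr11:117969367-117969616, minus strand) are shown because *Socs3* is a direct target of STAT3. Capitals mark the 1 match to the STAT pattern TTCNNNGAA, which reads the same on both strands.
Socs3: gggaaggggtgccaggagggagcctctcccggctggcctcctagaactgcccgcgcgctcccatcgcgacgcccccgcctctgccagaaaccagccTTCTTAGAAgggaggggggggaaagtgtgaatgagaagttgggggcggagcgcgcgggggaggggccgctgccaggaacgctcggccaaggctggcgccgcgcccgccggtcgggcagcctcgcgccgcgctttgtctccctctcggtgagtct
The match begins 154 bases before the start, and part of this window is also an exon of a transcript without coding sequence in the Ensembl annotation. The pattern was found in 1 of the 12 promoters of the genes and in 7.02% of all 32851 promoters in the table, and a match is a run of letters, not a measured binding site.

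Between EVP and TA, 5 of the 10 genes were called by limma, *Il6*, *Il11ra1*, *Osmr* and *Socs3* higher in EVP and *Osm* higher in TA, beside 3.50% of all genes (1.56% towards EVP, 1.94% towards TA). The libraries of 3 of them did not overlap (*Osmr*, *Socs3* and *Osm*), as for 4.29% of all genes, 2.70% with EVP above TA and 1.59% with TA above EVP. The count of 5 called genes was 6 with DESeq2, 3 with edgeR and 3 when any of EVP 1, EVP 2, EVP 3, TA 1 or TA 3 was left out. Between TA and D, 8 genes were called, all higher in TA, beside 12.5% of all genes called, 8.21% higher in TA and 4.31% higher in D. *Il6st* and *Lifr* were the 2 not called there. All 10 fibroblast, all 8 melanoma, all 8 keratinocyte and 5 of 8 mural markers were also called higher in TA than in D, the mural markers with sums of 5484 to 146345 normalized counts in TA and 5052 to 10765 in D, and their part in these differences was not tested. Every TA library lay above every D library for 5 genes, beside 5.56% of all genes, with 3.69% in the other direction and 9.25% in all. The 3 comparisons share their libraries in pairs, so that none is independent of the other two. Left out of all populations, the libraries numbered 1 took the counts of called genes to 8 for EVP against D, 3 for EVP against TA and 8 for TA against D.

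The place of TA between EVP and D differed among the genes. On a log2 scale where EVP is 0 and D is 1, the TA mean lay at 0.48 for *Il6*, 0.47 for *Osmr*, 0.49 for *Il11ra1* and 0.52 for *Socs3*. Single TA libraries ran from 0.09 to 0.71, from 0.20 to 0.73, from 0.26 to 0.66 and from 0.32 to 0.81 for these 4 genes. The mean lay at 0.06 for *Il6ra*, with libraries from -0.16 to 0.21, and at 0.06 for *Lifr*, with libraries from -0.41 to 0.83. It lay at 0.29 for *Lif*, 0.36 for *Il11* and 0.72 for *Il6st*, where single TA libraries ran from 0.14 to 0.85, from -0.22 to 0.95 and from 0.35 to 1.43. The differences in place between genes were not tested.

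Beyond the 10 genes, 68 of 71 other genes of the pathway passed the filter on low values. Between EVP and D, 28 of the 68 were called higher in EVP and 6 higher in D, beside 11.6% and 7.46% of all genes. Their median log2 difference was 1.1, beside 0.46 over all genes. Between EVP and TA, 8 were higher in EVP and 1 in TA, beside 1.56% and 1.94% of all genes. That count of 9 fell to as low as 2 when 1 library was left out. Between TA and D, 19 were higher in TA and 5 in D, beside 8.21% and 4.31% of all genes. The gene higher in TA than in EVP was *Ccnd1*, 4.62-fold (limma adjusted p = 0.0022). Of 3 other receptors tested, 1 was called between EVP and D, *Il31ra*, which pairs with the oncostatin M receptor to bind IL-31, 7.63-fold higher in EVP (limma adjusted p = 0.0409). Without EVP 4, at 758 normalized counts, the fold was 3.48 and the call was lost (limma adjusted p = 0.129). Its libraries overlapped between EVP and D, and it is named after its values were seen.

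Of 12 kinases, STATs and adaptors, 8 were not called between EVP and D, 2 were called higher in EVP and 2 higher in D. Over all genes, 11.6% were called higher in EVP and 7.46% higher in D. The median log2 difference of the 12 genes was 0.06. *Stat5a*, a STAT that many cytokines use, was 4.30-fold higher in EVP than in D (limma adjusted p = 5.5e-06). *Stat3*, named after its values were seen, was 1.47-fold higher in EVP with overlapping libraries (limma adjusted p = 0.0267). The adaptors *Sos1* and *Gab1*, which lead from gp130 towards RAS and PI3K signaling, were 2.75-fold (limma adjusted p = 0.0037) and 2.32-fold (limma adjusted p = 4.0e-04) higher in D. Of 14 other inhibitors, 3 were called, all higher in EVP, a share close to the 19.0% of all genes called. These were *Socs1*, 5.17-fold (limma adjusted p = 6.6e-04), *Cish*, 2.75-fold (limma adjusted p = 0.0208), and *Pias3*, which binds STAT3, 1.80-fold (limma adjusted p = 0.0293). *Adam10*, one of the 2 listed proteases that cut the IL-6 receptor from the cell surface, was 3.31-fold higher in D (limma adjusted p = 2.7e-05), and the other was not called.

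Of 20 genes known to respond to STAT3, 13 were called higher in EVP than in D and 3 higher in D. The shares over all genes were 11.6% and 7.46%. The median log2 difference of the 20 genes was 2.04, beside 0.46 over all genes. The largest rises in EVP were in *Timp1*, a metalloproteinase inhibitor, at 38.8-fold, and *Bcl6*, a transcriptional repressor, at 19.0-fold. *Vegfa*, the vascular growth factor, was 9.56-fold higher, the transcription factor *Klf4* 8.41-fold, *Cebpd*, a regulator of acute phase genes, 7.30-fold, and the kinase *Pim1* 6.09-fold. In the other direction the cell cycle gene *Ccnd1* was 10.0-fold higher in D (limma adjusted p = 5.8e-07) and the kinase *Pim3* was 2.95-fold higher in D (limma adjusted p = 2.3e-04). The third was *Bcl2l1*, also named after its values were seen, which encodes the survival protein BCL-XL and was 2.03-fold higher in D with overlapping libraries (limma adjusted p = 0.0119). *Fos*, *Junb* and *Egr1*, which rose in EVP against D, stand in the list of dissociation genes too.

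Of 12 acute phase genes, 8 were called by limma, all higher in EVP than in D, with a median log2 difference of 6.05. Over all genes, 11.6% were called in that direction, and the median was 0.46. Complement *C3* was 634-fold higher in EVP than in D (limma adjusted p = 1.1e-09), serum amyloid *Saa3* 593-fold, the protease inhibitor *Serpina3n* 438-fold and haptoglobin, *Hp*, 272-fold. The lipopolysaccharide binding protein *Lbp* was 78.8-fold and lipocalin *Lcn2* 50.4-fold higher. Between TA and D, 6 of the 12 were higher in TA, and between EVP and TA 1 was called, *C3*, 4.40-fold higher in EVP (limma adjusted p = 0.0423). The shares over all genes in these directions were 8.21% and 1.56%.

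**Figure D5:**
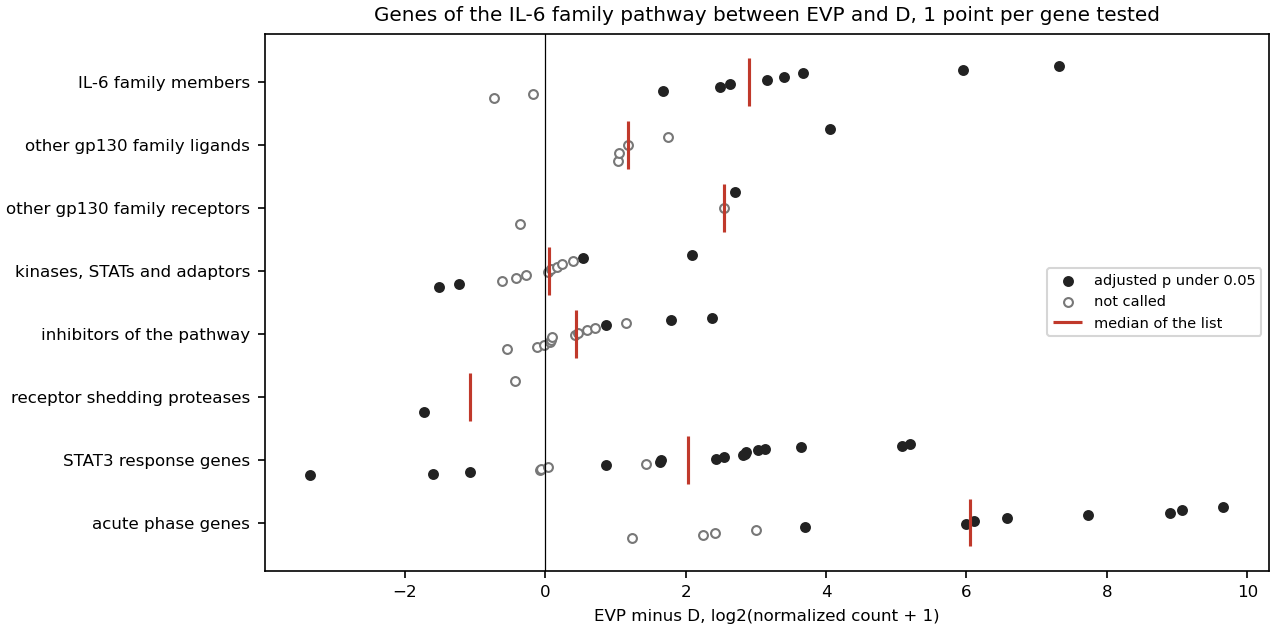
Difference of EVP minus D in log2(normalized count + 1) for each gene of the 10 and of 7 lists of other pathway genes, with filled points for a limma adjusted p under 0.05 and a red bar at each list's median. Medians are 2.90 for the 10 genes, 2.04 for STAT3 response genes, 6.05 for acute phase genes and 0.06 for kinases, STATs and adaptors.

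The genes whose values over the 15 libraries were most like those of a family gene were sought among 11290 genes, with Pearson r on log2 values as a description. All points share the differences between the populations, so that a second search was made with each population's mean subtracted. Among the genes most like *Socs3* were *Xdh* (r = 0.966) and *Csf1* (r = 0.964), and with means subtracted *Mafk* (r = 0.915), *Zfp36l1* and *Zdhhc3*. *Osmr* had *Rcn3* (r = 0.987), *Slc39a6* and *Fbln2* as its nearest genes in both searches. *Il6ra* was closest to *C3* (r = 0.965), *Apod* and *Fth1*, and within populations to *Dnajb1* (r = 0.829) and *Atf3*, known for their rise under stress, and *Hmcn2*. *Il6* was closest to *Carm1* in both searches (r = 0.944 and 0.904). *Il6st* was closest to *Antxr2* (r = 0.950), *Kank2* and *Ifit3*, and within populations to *Fam126a* (r = 0.905). *Lifr* was closest to *Zscan26* (r = 0.843), lower than for the other genes searched, and within populations to *Lgr4* (r = 0.876).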

How the data were processed

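RNA of 15 libraries, 5 each of EVP, TA and D, was sequenced by the authors after a modified Smart-Seq2 preparation with paired reads of 76 bases. The submitters' processing notes name STAR 2.5.3a and DESeq2 1.10.1 and the build GRCm38. The deposited values are signal values, gene counts that the authors divided by 1 size factor per library (normalized counts). The authors' own tables of comparisons hold fold changes and p-values and were not used. All deposited values were whole multiples of 1 read per library (100%, tolerance 0.01), so whole reads were recovered, 5394356 to 26513073 per library. With 3 reads as the floor, *Lif* and *Il11* fell under it in some D libraries. *Il11* in TA 2 and *Osm* in EVP 3, each with 2 reads, were also under it.

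Log2(normalized count + 1) of 25549 genes with a mean of at least 5 was compared with limma 3.58.1 in R 4.3.3 (1 coefficient per population, trend, two-sided, Benjamini-Hochberg adjusted p under 0.05). A fold divides the mean normalized counts of the populations, and ± gives the SD. As alternatives, edgeR 4.0.16 and DESeq2 1.42.0 were run on whole reads, and pseudocounts, filters, scalings, array weights, a replicate block and left-out libraries were tried. The fit was tested on simulated data. Lengths came from GENCODE M21. Of other genes, 220 share a symbol with another and were left out of the lists and of the search for like genes. Those that passed the filter stayed in the fits and in the shares over all genes. Members and lists were chosen with earlier results of these data known. All 10 members were named, and of the other pathway genes those called between EVP and D without overlap were eligible. Replicate numbers were checked for pairing: correlations of same-numbered deviations ran from -0.136 to 0.689, above 0.1 in each comparison for numbers 1, 4 and 5 but not for 2 and 3. The number was therefore used as a block in an alternative fit only, though libraries 1, 4 and 5 deviated together. Results of some genes are not reported here.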

Additional observations from a re-analysis of the deposited data

Results flagged for a closer look

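*Lif* in TA replicate 3 stood apart from the other TA libraries, at 4.46 normalized counts (4 reads) against 170.6 in the next lowest. On the log2 scale the gap was 0.959 of the range of the 5 TA libraries. Chance flags about 1 in 20 groups, and 30 groups of 5 libraries were examined with 1 flagged.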

How the results depend on the processing

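Of 810 alternative values of the 30 log2 fold changes of single genes, 745 kept their direction and their side of the threshold, 33 lost the call, 18 gained one and 14 changed sign. For EVP against D, 8 to 9 genes were called in every alternative with a left-out library or another setting. The 5 calls for EVP against TA became 3 with a fit on only the 2 populations compared, 3 with edgeR and 3 without the libraries numbered 1. The ranges with 1 library left out were 8 to 9 (EVP against D), 3 to 6 (EVP against TA) and 6 to 8 (TA against D) for the 10 genes, and 31 to 35, 2 to 11 and 18 to 26 for the other pathway genes. The 9 other pathway genes called for EVP against TA became 5 without a minimum mean, 4 with array weights, 17 with DESeq2 and 3 without the libraries numbered 1, and 5, 2, 2, 4 and 4 without EVP 1, EVP 2, EVP 3, EVP 4 and TA 3. With the replicate block 9, 6 and 8 of the 10 genes and 16 of the other pathway genes for EVP against TA were called. The block brought *Il6st* between EVP and TA (limma adjusted p = 0.0138) and *Lifr* between EVP and D (limma adjusted p = 0.0420) past the threshold. The labels give the samples only a number, which may mark a shared batch. Except for number 3, each EVP library correlated best with its own number in TA and in D, and each TA library in D. For number 2 these correlations were 0.059 to 0.137. The D libraries were not searched against the other populations, nor TA against EVP.

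Signs turned only for differences that were not called. *Osm* between EVP and D was 0.016 with a pseudocount of 8, 0.37 with edgeR, 0.38 with DESeq2 and 0.13 without the libraries numbered 1, and -0.80 to 0.73 with 1 library left out. For *Lifr* and *Il6ra* between EVP and TA the ranges with 1 library left out were -0.19 to 0.093 and -0.11 to 0.42. The *Lifr* to *Osmr* ratio became 0.303, 0.759 and 3.08 with the longest transcript. The call of *Il11* between TA and D was also lost with a pseudocount of 8 (limma adjusted p = 0.091), and that of *Osm* there with quantile normalization (limma adjusted p = 0.0646). The causes were not tested.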
